A study of Mus musculus with 54 samples.

Results

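The genes described here are the keratins, the desmosomal genes and the cornified envelope genes measured by bulk RNA sequencing of mouse prostates that carry genetically engineered tumours. They were chosen by symbol: any Krt gene with a number alone after the prefix, the desmogleins (Dsg), desmocollins (Dsc), desmoplakin (Dsp), plakophilins (Pkp), every Sprr and Lce gene, Ivl, Lor, Sbsn, Evpl, Ppl and Trp63. The rule found 51 members among the 16772 genes of the deposited table: 6 luminal keratins, 7 basal members, 6 genes of the desmosome core, 27 squamous members and 5 others. Krt6a and Krt6b, whose symbols end in a letter, fall outside the rule and are given separately.

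Values came from 54 libraries of 48 mice in 11 groups. Castrated TKO mice received CPI1688, an Ezh2 inhibitor (4 mice, 18 to 19 weeks old), or vehicle (4 mice, 15 to 19 weeks). Mice castrated at 12 weeks and sampled at endstage were DKO_EE (5 mice, 35 to 59 weeks), DKO_EP (5 mice, 34 to 37 weeks) and DKO (4 mice, 39 to 99 weeks). Intact mice sampled at endstage were DKO_EE (8 mice, 28 to 42 weeks), DKO_EP (3 mice, 39 to 52 weeks) and DKO (3 mice, 35 to 46 weeks). Intact mice sampled at 12 weeks were DKO_EE, DKO_EP and DKO, with 4 mice each. The submitters describe DKO_EE and DKO_EP as DKO mice with Ezh2 deletions, so every DKO_EE, DKO_EP and DKO animal carries the DKO background. The genes deleted in DKO and TKO and the drivers of deletion are not given in the sources used here.

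Keratins are the intermediate filament proteins of epithelia, and each filament pairs a type I with a type II keratin. Simple and luminal cells pair Krt8 with Krt18, and basal cells of the prostate and of stratified epithelia pair Krt5 with Krt14 under the transcription factor p63, the product of Trp63. Desmosomes tie these filaments together across cells through the cadherins Dsg and Dsc, the plakophilins and desmoplakin. In squamous differentiation, cells build a cornified envelope from cross-linked precursors such as involucrin (Ivl), loricrin (Lor) and the small proline-rich proteins (Sprr).

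The promoters of 4 members are shown because Krt5 and Krt8 lie in one keratin cluster and gave different results below, while Sprr1a and Ivl are envelope genes whose windows hold an AP-1 motif. Each run is 300 bases of RefSeq sequence (GRCm38.p6), from 250 bases before to 50 bases after the gene's start, read 5′ to 3′ on the minus strand, at chr15:101712856-101713155 for Krt5, chr15:102004293-102004592 for Krt8, chr3:92485832-92486131 for Sprr1a and chr3:92573686-92573985 for Ivl. Capitals mark TGANTCA, the motif bound by AP-1 factors, CACNCCC or its reverse GGGNGTG, a motif of KLF-like factors, and TATAAA or its reverse TTTATA, the letters of a TATA box. Overlapping matches run together in capitals, and the Krt5 window holds none of these motifs.
Krt5: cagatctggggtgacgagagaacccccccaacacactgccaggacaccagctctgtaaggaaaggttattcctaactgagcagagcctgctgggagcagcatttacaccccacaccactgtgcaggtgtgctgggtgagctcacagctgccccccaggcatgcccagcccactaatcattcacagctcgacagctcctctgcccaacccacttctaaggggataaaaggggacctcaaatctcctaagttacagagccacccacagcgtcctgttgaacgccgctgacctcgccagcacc
Krt8: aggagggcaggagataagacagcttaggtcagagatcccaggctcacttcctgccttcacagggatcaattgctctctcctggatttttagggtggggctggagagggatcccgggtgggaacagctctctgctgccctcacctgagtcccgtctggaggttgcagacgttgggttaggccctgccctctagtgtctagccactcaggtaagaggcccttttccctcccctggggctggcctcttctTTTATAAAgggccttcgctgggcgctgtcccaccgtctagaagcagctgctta
Sprr1a: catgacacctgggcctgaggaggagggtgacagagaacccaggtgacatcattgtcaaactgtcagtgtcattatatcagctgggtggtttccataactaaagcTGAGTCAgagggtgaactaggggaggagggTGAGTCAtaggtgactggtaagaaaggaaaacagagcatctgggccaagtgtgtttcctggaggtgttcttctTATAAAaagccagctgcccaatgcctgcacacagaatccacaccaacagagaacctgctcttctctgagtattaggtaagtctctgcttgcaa
Ivl: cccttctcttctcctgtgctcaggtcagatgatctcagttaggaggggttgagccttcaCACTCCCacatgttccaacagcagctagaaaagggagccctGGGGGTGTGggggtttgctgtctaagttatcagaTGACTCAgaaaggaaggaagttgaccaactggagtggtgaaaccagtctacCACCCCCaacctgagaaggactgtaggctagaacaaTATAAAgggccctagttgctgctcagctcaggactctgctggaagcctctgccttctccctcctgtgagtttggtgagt
The promoter windows of 25 of the 51 members were searched. No desmocollin or desmoglein was among these 25, so the class counts below do not cover them. TGANTCA, searched on both strands, lay in the window of 9 of these 25, against 7.79% of 32544 mouse promoters of the same length. Those holding it were Ivl, Lor, Sbsn, Krt13, Sprr1a, Sprr2d, Sprr2e, Sprr2f and Sprr2h, all among the 15 squamous members searched. None of the 5 luminal keratins, 2 basal members, 2 desmosome core genes and 1 other member searched held it. TATAAA lay in 12 of the 25 windows, 10 of them squamous, against 13.6% of all promoters, and CACNCCC in 7 of the 25, against 29.1%. Sprr2d, Sprr2e, Sprr2f and Sprr2h lie close together on chromosome 3. Their windows hold TGANTCA and TATAAA at nearly the same places, so their matches are not independent of each other. In Sprr1a the AP-1 letters begin 146 and 116 bases before the start, and in Ivl 116 bases before it. The overlapping TTTATA and TATAAA of Krt8 begin 3 and 1 bases before the start. A match describes these letters only and shows no binding.

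All expression values are log2 of the normalized count plus 1, averaged over the pieces of an animal where more than 1 was sequenced, and all p-values are limma's, adjusted over all genes tested in a comparison, with 0.05 as the threshold. Libraries held 3687048 to 9741808 recovered reads, and the members together took 0.0639% to 2.01% of them. Ezh2, the targeted gene, had 7.41 to 8.76 in intact DKO_EE tumours, against 9.47 to 9.88 in intact DKO tumours. In intact DKO_EP tumours it had 9.30 to 9.51. In castrated DKO_EE tumours Ezh2 had 8.02 to 9.19, against 8.43 to 9.71 in castrated DKO tumours, with overlap. At 12 weeks it had 7.33 to 7.79 in DKO_EE, against 8.19 to 8.69 in DKO. Ezh2 was called lower in DKO_EE at intact endstage (adjusted p = 0.0194), and not at castrated endstage (adjusted p = 0.0831) or 12 weeks (adjusted p = 0.975). Lars2, a mitochondrial tRNA synthetase gene, exceeded 10% of the reads at intact endstage in all 5 DKO_EP libraries and in 5 of 12 from DKO_EE, and Ttn, a muscle gene, exceeded 1% in 4 of 12 libraries at 12 weeks. The prostate secretory genes Pbsn and Msmb, 2 of 7 prostate luminal markers, were at 0 in all intact DKO, DKO_EE and DKO_EP endstage tumours. The 7 together summed to 9.36 to 10.93 in intact DKO tumours, against 13.03 to 13.59 in DKO at 12 weeks. The sums were 8.24 to 10.17 against 12.54 to 13.17 in DKO_EE, and 9.42 to 11.59 against 12.24 to 14.25 in DKO_EP. Replicates are separate animals, and each p-value sets a difference of means against the spread among animals, estimated over all groups in the fit.

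Before the comparisons, 4 animals have to be named because they stood apart from their groups. The castrated DKO animal 2, sampled at 99 weeks, had a median of 11.31 over the basal members and 6.31 over the squamous members. Castrated DKO animals 1, 3 and 4 had medians of 3.62, 0 and 1.68 over the basal members. The high animal was thus above its group in both classes. Among TKO mice given vehicle, animals 1 and 2 (19 and 15 weeks old) had basal medians of 10.35 and 7.59, and animals 3 and 4 had 0 and 2.20. The CPI1688-treated TKO animal 4 was lowest of its group in other classes, with a luminal keratin median of 8.62 and a desmosome core median of 7.32.

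**Figure D1:**
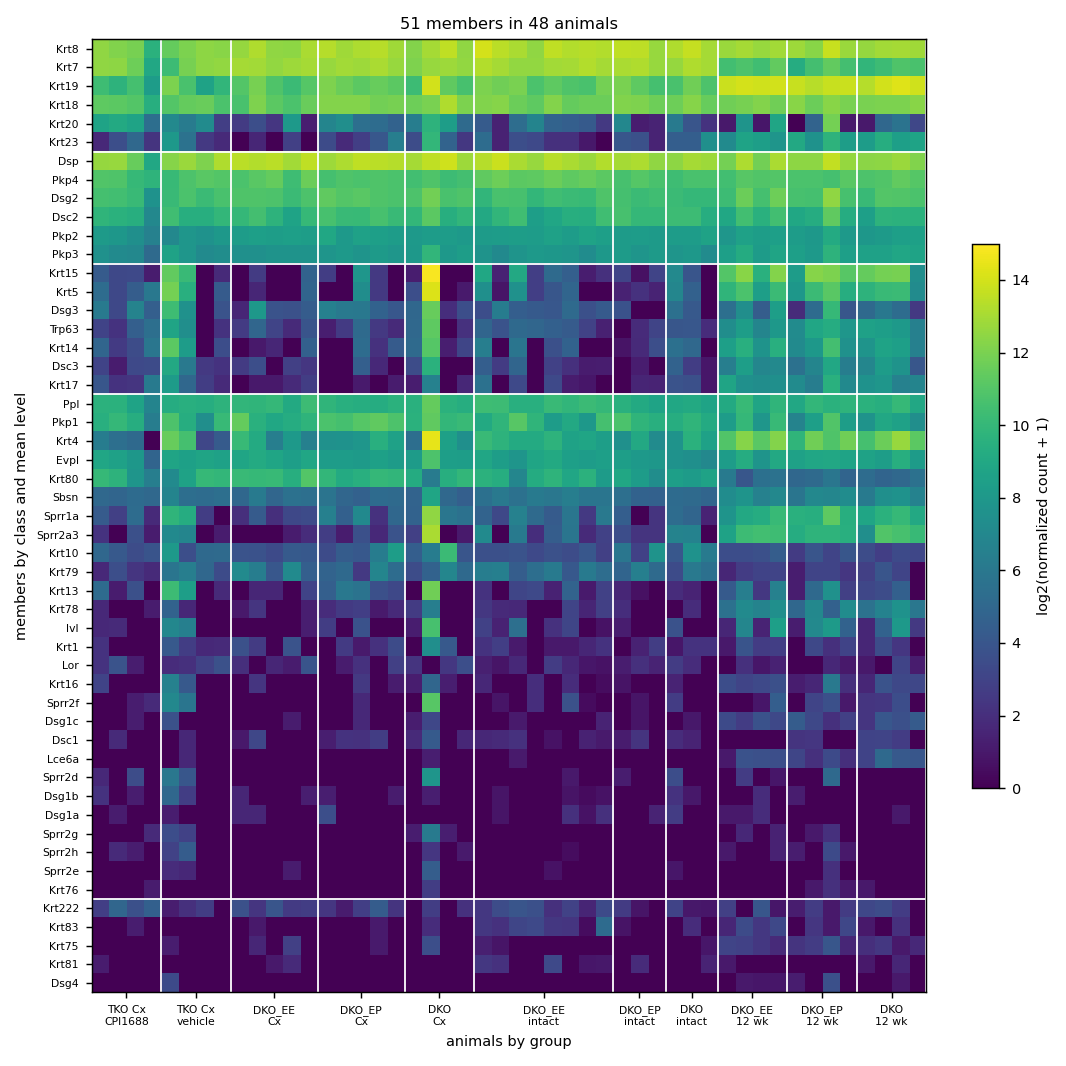
The heat map shows log2(normalized count + 1) of the 51 members (rows, by class and then by mean level) in 48 animals (columns, by group). The median over the basal members is 6.56 or more in each of the 12 mice at 12 weeks, and 1 castrated DKO animal (11.31) and 2 vehicle-treated TKO animals (10.35 and 7.59) stand out among the castrated mice.

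Krt8, the type II keratin of simple epithelia, had the highest median of all members in each of the 6 endstage groups and in both castrated TKO groups, counted per kilobase of exon. In intact DKO tumours the order of median normalized counts per kilobase was Krt8 (4906, range 4170 to 6728), its type I partner Krt18 (2283, range 2074 to 3388), Krt7 (1131, range 893 to 1335), Krt19 (951, range 882 to 1822) and Dsp (748). Krt8 stood above Krt18 without overlap, and the ranges of Krt7 and Krt19 overlapped. At 12 weeks in DKO, Krt19, a type I keratin of simple epithelia, was highest (8557, range 5575 to 10584), ahead of Krt8 (3896, range 3210 to 4196) and Krt18 (2929, range 2872 to 3647). Krt8 and Krt18 overlapped there, and neither reached the range of Krt19. Krt15, a basal keratin, followed at 12 weeks with a median of 1875 per kilobase, and Krt4, a keratin of non-cornified stratified epithelia, with 1307. Exon lengths were taken over all annotated exons of a gene, so genes with long untranslated parts read low on this scale.

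The first question was how the members differ between endstage tumours and tissue at 12 weeks in mice left intact, within each genotype. In DKO, Trp63, the basal keratins Krt15 and Krt17 and the envelope genes Sprr1a, Sprr2a3 and Sbsn were lower at endstage, and Krt7, Krt10, Krt79 and Krt80 were higher. In all, 12 of 51 members were lower and 4 higher, which is 23.5% and 7.84% of the members, against 18.7% and 18% of all 16772 genes (36.7% called in either direction). In DKO_EE, 17 were lower and 4 higher, against 27% and 23.6% of all genes (50.6% in either direction). In DKO_EP, 17 were lower and 3 higher, against 22.9% and 21.3% of all genes (44.2% in either direction). Called in either direction were 31.4% of the members in DKO, with 41.2% in DKO_EE and 39.2% in DKO_EP, and the difference from the shares of all genes was not tested. The median log2 fold change of the members was -0.66 in DKO, with -0.71 in DKO_EE and -1.03 in DKO_EP, against -0.04, -0.07 and -0.06 over all genes. With members at 0 in a whole group set to the bound that 3 reads allow, the medians were -0.66, -0.47 and -0.66. Without intact DKO animal 3 the DKO count was 8 in place of 16, and without the 12-week libraries with over 1% Ttn it was 11, with a median of -1.16. In all 3 genotypes, 11 members were lower (Trp63, Krt15, Krt17, Krt19, Krt78, Dsc3, Dsg1c, Lce6a, Sbsn, Sprr1a and Sprr2a3) and 3 were higher (Krt7, Krt79 and Krt80). These are tissue RNA levels, in which fewer cells of a type and less RNA per cell cannot be told apart.

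**Figure D2:**
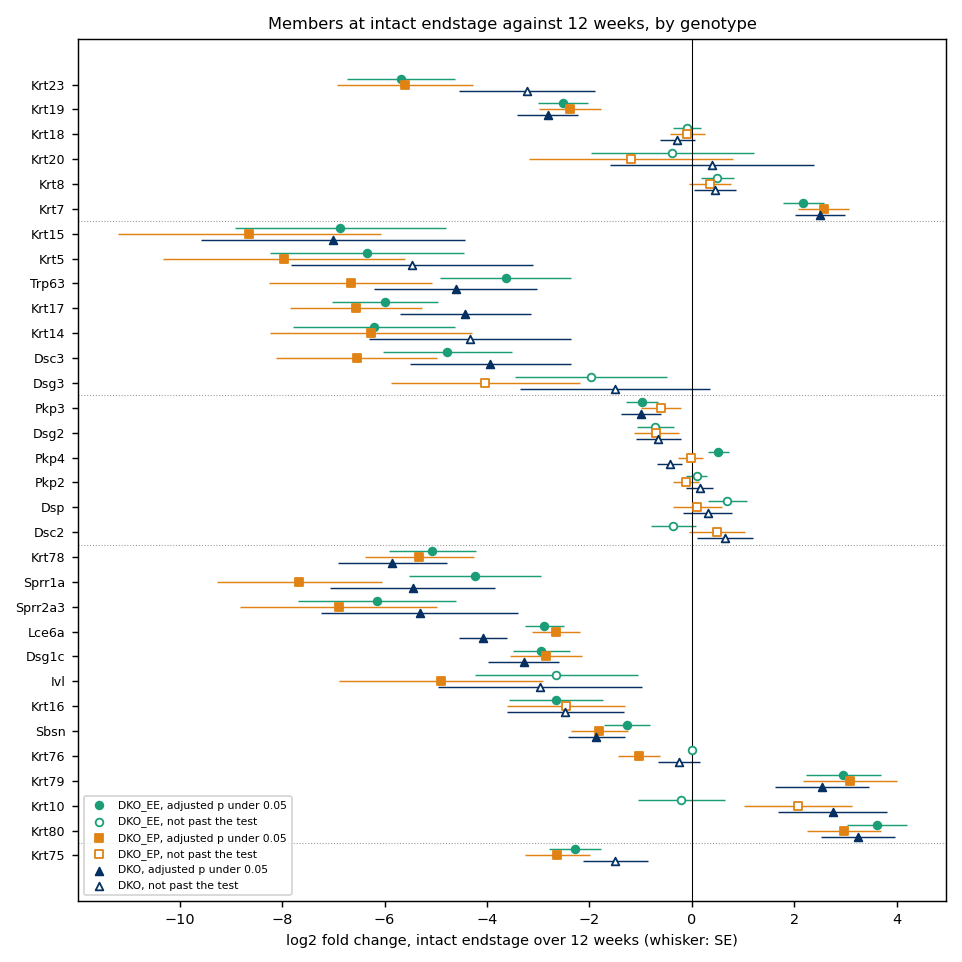
Each symbol is a member's log2 fold change at intact endstage over 12 weeks in DKO_EE (circles), DKO_EP (squares) and DKO (triangles), with whiskers for the SE and filled symbols for an adjusted p under 0.05. From the top, the blocks are luminal keratins, basal members, desmosome core, squamous members and others, with all members of the first 3 blocks and the called members of the last 2. The medians of the basal block are -4.42 in DKO, -6.00 in DKO_EE and -6.55 in DKO_EP, the symbols of the desmosome core lie near 0, and Krt7, Krt79 and Krt80 lie right of 0.

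Among luminal keratins, Krt7 rose and Krt19 fell in every genotype, while Krt8 and Krt18 were not called. Krt8 had 13.23, 13.69 and 13.00 in intact DKO tumours, against 12.62, 12.92, 13.00 and 12.88 in DKO at 12 weeks, and Krt18 had 11.68, 12.25 and 11.54, against 12.01, 12.04, 12.04 and 12.36. The log2 fold changes in DKO were 0.45 (SE 0.41, adjusted p = 0.406) for Krt8 and -0.29 (SE 0.34, adjusted p = 0.537) for Krt18, and their values in the other 2 genotypes lay between -0.10 and 0.49. Krt7, a type II keratin of glandular and transitional epithelia, had 12.62, 13.20 and 12.96 in intact DKO tumours, against 9.85, 10.29, 10.88 and 10.68 at 12 weeks, with no overlap. It rose by 2.50 (SE 0.49, adjusted p = 0.000136) in DKO, with 2.17 (SE 0.40, adjusted p = 2.59e-05) in DKO_EE and 2.57 (SE 0.49, adjusted p = 7.56e-05) in DKO_EP. Krt19 went the other way, with 10.68, 11.72 and 10.79 in intact DKO tumours, against 13.34, 13.97, 14.26 and 13.94 at 12 weeks. Its log2 fold change was -2.81 (SE 0.60, adjusted p = 0.000312) in DKO, with -2.52 (SE 0.48, adjusted p = 4.6e-05) in DKO_EE and -2.38 (SE 0.60, adjusted p = 0.00144) in DKO_EP. Thus 2 luminal keratins changed in opposite directions in each genotype. Krt23, a type I keratin, had 4.48, 4.46 and 7.49 in intact DKO tumours, against 8.28, 9.37, 8.46 and 8.69 at 12 weeks. It was called lower in DKO_EE (-5.68, SE 1.06, adjusted p = 3.53e-05) and DKO_EP (-5.60, SE 1.32, adjusted p = 0.000768), and in DKO its value was -3.22 (SE 1.32, adjusted p = 0.052). The DKO difference was called in 6 of 16 alternatives. Whether Krt23 differs in course between the genotypes was not tested. Krt20, a keratin of intestinal and umbrella cells, ranged over 0 to 11.86 in DKO_EP at 12 weeks and was called in no comparison.

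**Figure D3:**
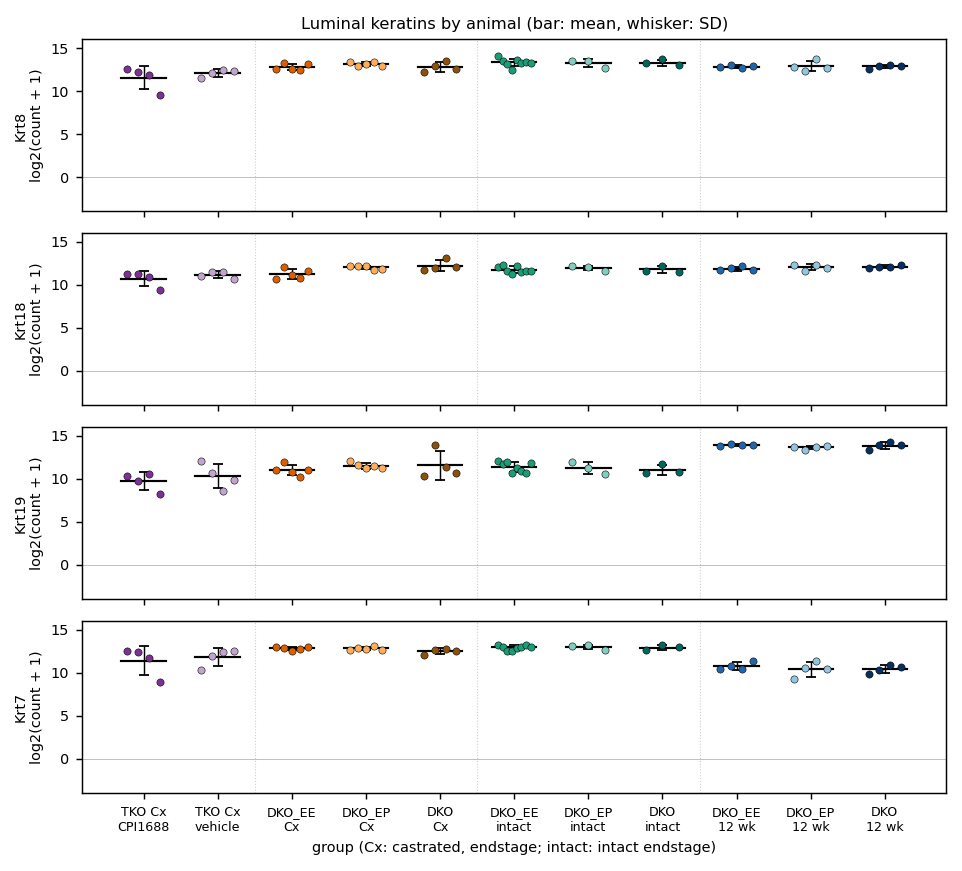
The plot gives log2(normalized count + 1) of Krt8, Krt18, Krt19 and Krt7 by animal (points) in the 11 groups, with bars for means and whiskers for SD. Krt8 and Krt18 overlap between intact endstage and 12-week mice of the 3 genotypes. Krt7 is higher and Krt19 lower in the intact endstage groups than in the 12-week groups, and the CPI1688-treated TKO animal with 9.58 for Krt8 lies below its group.

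Of the 5 classes, the basal members had the lowest median in every genotype. Trp63 had 4.01, 4.05 and 1.88 in intact DKO tumours, against 8.61, 8.39, 8.14 and 6.56 at 12 weeks, and no endstage animal reached the lowest 12-week animal. Its log2 fold change was -4.61 (SE 1.60, adjusted p = 0.0211) in DKO, with -3.63 (SE 1.28, adjusted p = 0.0171) in DKO_EE and -6.66 (SE 1.60, adjusted p = 0.000902) in DKO_EP. The DKO call of Trp63 was lost in 2 alternatives, with adjusted p up to 0.105. Krt15 had 7.03, 3.97 and 0 in intact DKO tumours, against 11.46, 11.89, 11.92 and 7.44 at 12 weeks, where animal 4 with 7.44 stood below the other 3. Krt15 fell by 7.01 on the log2 scale in DKO (SE 2.57, adjusted p = 0.0295), and the DKO call was lost in 7 alternatives, with adjusted p up to 0.182. Krt5 had 6.87, 4.68 and 0 in intact DKO tumours, against 9.68, 10.15, 10.25 and 7.21 at 12 weeks. The 2 groups did not overlap, but the DKO difference of -5.47 (SE 2.36, adjusted p = 0.0653) missed the threshold. It passed in 3 of 16 alternatives. In DKO_EE, Krt5 was 0 at the lowest, 3.42 at the median and 7.57 at the highest over the 8 intact endstage tumours, against 9.82, 10.76, 8.40 and 10.20 at 12 weeks, and its log2 fold change was -6.34 (SE 1.89, adjusted p = 0.00536). In DKO_EP it had 1.44, 2.17 and 1.52 at intact endstage, against 7.96, 10.23, 11.15 and 9.37 at 12 weeks, a log2 fold change of -7.97 (SE 2.36, adjusted p = 0.00607). The partner Krt14 was called lower with Krt5 in DKO_EE (-6.20, SE 1.58, adjusted p = 0.00136) and DKO_EP (-6.26, SE 1.97, adjusted p = 0.00956) and was -4.33 (SE 1.97, adjusted p = 0.0817) in DKO. In DKO, Krt14 was called in 1 of 16 alternatives. The spread among intact DKO_EE tumours ran from 0 to 7.57 for Krt5 with both ends below every 12-week DKO_EE animal.

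The stress and hair follicle keratin Krt17 and the basal desmocollin Dsc3 were lower in every genotype as well. Krt17 had 3.84, 3.69 and 0.92 in intact DKO tumours, against 7.67, 7.87, 6.62 and 6.79 at 12 weeks, and Dsc3 had 4.75, 2.70 and 0.92, against 6.88, 8.30, 7.70 and 4.01. The 2 groups overlapped for Dsc3 and not for Krt17, and the DKO call of Dsc3 was lost in 8 alternatives, with adjusted p up to 0.211. Dsg3, the desmoglein of basal keratinocytes, was the exception among the 7: its log2 fold change was -1.50 (SE 1.85, adjusted p = 0.556) in DKO, with -1.96 (SE 1.48, adjusted p = 0.274) in DKO_EE and -4.03 (SE 1.85, adjusted p = 0.0726) in DKO_EP, none past the test. Over the class, 4 of 7 were called lower in DKO, 6 of 7 in DKO_EE and 6 of 7 in DKO_EP, with medians of -4.42, -6.00 and -6.55, and 18.7%, 27% and 22.9% of all genes were called lower. Whether the genotypes differ in these falls was not tested. Other cell types moved with these falls. Of 5 urothelium markers, 3 (Upk1a, Upk1b and Upk2) were lower in each genotype, and their summed level was 2.45 to 6.50 in intact DKO tumours, where Upk2 was at 0, against 9.44 to 11.69 at 12 weeks. Of 6 seminal vesicle markers, 3 were lower in DKO, with a sum of 4.54 to 6.43, against 6.99 to 13.62. All 6 skeletal muscle markers were lower in DKO, with a sum of 7.35 to 10.91, against 13.35 to 18.01, and Myh4 was at 0 at endstage. All 7 neuroendocrine markers were higher in each genotype, with a sum of 13.28 to 13.74 in intact DKO tumours, against 7.05 to 9.90 at 12 weeks. Of 7 fibroblast markers, 0 were called in DKO, 7 were lower in DKO_EE and 3 in DKO_EP, and of 5 immune markers 1, 3 and 1 were lower. The 5 proliferation markers were higher in each genotype. The part of these cell types in the changes of the members was not tested.

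**Figure D4:**
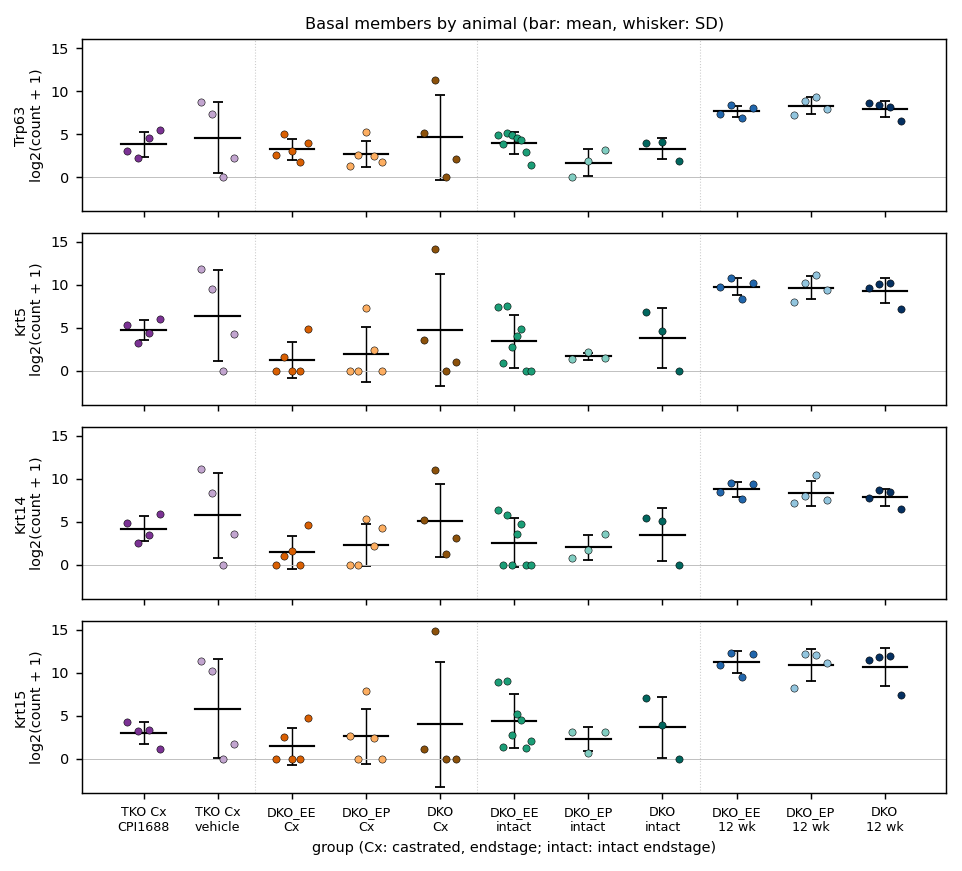
The plot gives log2(normalized count + 1) of Trp63, Krt5, Krt14 and Krt15 by animal (points) in the 11 groups, with bars for means and whiskers for SD. All 12 mice at 12 weeks are high for Krt5 (lowest 7.21), and most endstage tumours are below them. For Krt5, 1 castrated DKO animal (14.23) and 2 vehicle-treated TKO animals lie within or above the 12-week range. Intact DKO_EE animals 1 (7.46) and 3 (7.57) and castrated DKO_EP animal 3 (7.34) lie within it near its lower end.

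Few genes of the desmosome core changed. Dsp, the plakin that anchors filaments to the plaque, had 12.43, 13.00 and 12.82 in intact DKO tumours, against 12.38, 12.45, 12.75 and 12.18 at 12 weeks, with overlap. Dsg2 and Dsc2, the cadherins of simple epithelia, and Pkp2, their plakophilin, were called in no genotype. The remaining 2 of the 6, Pkp3 and Pkp4, were called in 1 or 2 genotypes. Pkp3, a plakophilin found in most epithelia, was lower in DKO (-0.995, SE 0.39, adjusted p = 0.0438, lost in 8 alternatives with adjusted p up to 0.2) and DKO_EE (-0.97, SE 0.32, adjusted p = 0.00998), and was -0.61 (SE 0.39, adjusted p = 0.21) in DKO_EP. Pkp4, a relative of p120 catenin, was higher in DKO_EE (0.51, SE 0.20, adjusted p = 0.03) and was -0.44 (SE 0.25, adjusted p = 0.169) in DKO. The Pkp4 values in DKO_EE were 11.21 at the lowest, 11.33 at the median and 11.70 at the highest at intact endstage, against 10.47, 11.13, 10.94 and 11.01 at 12 weeks. The class medians were -0.14 in DKO and DKO_EE and -0.07 in DKO_EP. Genes that work beside desmosomes, listed outside the rule, moved more. Of 19 junction and hemidesmosome partners, 14 were lower in DKO, 13 in DKO_EE and 14 in DKO_EP, and none was higher, with medians of -1.80, -1.49 and -2.13. Itgb4, the integrin of the basal cell's hemidesmosome, was -5.02 (SE 1.12, adjusted p = 0.000545) in DKO, and Col17a1, its transmembrane collagen, was -4.39 (SE 1.66, adjusted p = 0.0346). Cdh1, the cadherin of adherens junctions, was -2.15 (SE 0.36, adjusted p = 1.62e-05), and Jup, plakoglobin of the desmosomal plaque, was -0.78 (SE 0.31, adjusted p = 0.0442).

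Most of the 27 squamous members were called in no direction, and the few that were called went both ways. Sprr1a, an envelope precursor, had 5.33, 4.92 and 1.48 in intact DKO tumours, against 8.83, 9.57, 10.02 and 9.02 at 12 weeks, and its log2 fold change was -5.45 (SE 1.61, adjusted p = 0.00689) in DKO, with -4.23 (SE 1.29, adjusted p = 0.00614) in DKO_EE and -7.66 (SE 1.61, adjusted p = 0.000209) in DKO_EP. Its relative Sprr2a3 had 6.73, 6.66 and 0 in intact DKO tumours, against 7.41, 10.94, 10.63 and 10.13 at 12 weeks, and 73.6% of its 31-base words also occur in other genes, so its reads may be shared with Sprr2a1. The DKO call of Sprr2a3 was lost in 4 alternatives, with adjusted p up to 0.278. Intact DKO animal 3 was the lowest for both genes, and no endstage DKO animal reached the 12-week mice. Krt78, a type II keratin of stratified epithelia, had 0, 1.91 and 0 in intact DKO tumours, against 5.65, 6.65, 7.66 and 5.97 at 12 weeks, and was -5.85 (SE 1.06, adjusted p = 4.6e-05) in DKO, with -5.07 (SE 0.85, adjusted p = 7.96e-06) in DKO_EE and -5.32 (SE 1.06, adjusted p = 0.000116) in DKO_EP. Sbsn, suprabasin of upper epidermal layers, had 5.26, 5.16 and 4.89 in intact DKO tumours, against 6.09, 7.45, 7.66 and 6.66 at 12 weeks, a log2 fold change of -1.86 (SE 0.55, adjusted p = 0.00752). Lce6a, a late envelope gene, was low at 12 weeks (3.01, 5.12, 4.17 and 4.01 in DKO) and at 0 in all intact DKO and DKO_EP tumours. Against the floor of 3 reads per library, Lce6a was lower by at least 2.19 on the log2 scale in DKO (adjusted p = 9.4e-08), and in DKO_EP no bound could be set because its 12-week level lay under that floor. Dsg1c, an epidermal desmoglein, was also called lower in each genotype, with 0 to 0.94 in intact DKO tumours, against 2.33 to 4.30 at 12 weeks, and 39.4% of its 31-base words occur in other genes.

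Ivl separated animals of the same age. At 12 weeks it had 1.63, 6.91, 1.49 and 8.46 in DKO_EE, 1.19, 7.07, 8.19 and 4.74 in DKO_EP and 1.59, 4.70, 8.07 and 2.50 in DKO. Each 12-week group thus held animals under 2 and animals above 8. At intact endstage Ivl had 3.75, 0 and 0 in DKO and 1.19, 0 and 0 in DKO_EP, and it was called lower in DKO_EP (-4.90, SE 1.99, adjusted p = 0.0427), a call lost in 11 alternatives with adjusted p up to 0.161. Lor, the main envelope protein of epidermis, was low, at 0 to 2.67 in intact DKO tumours, against 0 to 3.07 at 12 weeks. Krt1 and Krt10 pair in the upper layers of epidermis, and Krt10 had 4.09, 7.64 and 6.13 in intact DKO tumours, against 3.47, 2.78, 3.40 and 3.19 at 12 weeks. Krt10 rose in DKO (2.74, SE 1.05, adjusted p = 0.0378, lost in 9 alternatives with adjusted p up to 0.229), while it was -0.21 (SE 0.85, adjusted p = 0.863) in DKO_EE and 2.07 (SE 1.05, adjusted p = 0.108) in DKO_EP. Krt80, a type II keratin of differentiating epithelia, had the largest rise of the members in DKO and DKO_EE. It had 8.49, 8.26 and 8.63 in intact DKO tumours, against 5.33, 4.85, 5.08 and 5.61 at 12 weeks, a log2 fold change of 3.24 (SE 0.72, adjusted p = 0.000537), with 3.62 (SE 0.58, adjusted p = 4.09e-06) in DKO_EE and 2.97 (SE 0.72, adjusted p = 0.00108) in DKO_EP. Krt79, a keratin of the mouse hair canal, rose too, with 3.43, 6.04 and 5.54 in intact DKO tumours, against 2.81, 3.97, 3.07 and 0 at 12 weeks, at 2.54 (SE 0.91, adjusted p = 0.0265) with overlap, and the DKO call was lost in 6 alternatives, with adjusted p up to 0.311. In total, 6 of 27 squamous members were lower and 3 higher in DKO, 7 and 2 in DKO_EE, and 8 and 2 in DKO_EP, shares near those of all genes for lower calls (18.7%, 27% and 22.9%) and below them for higher calls (18%, 23.6% and 21.3%). Of the 27, 17 lie in the lowest 25% of all genes by mean level.

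**Figure D5:**
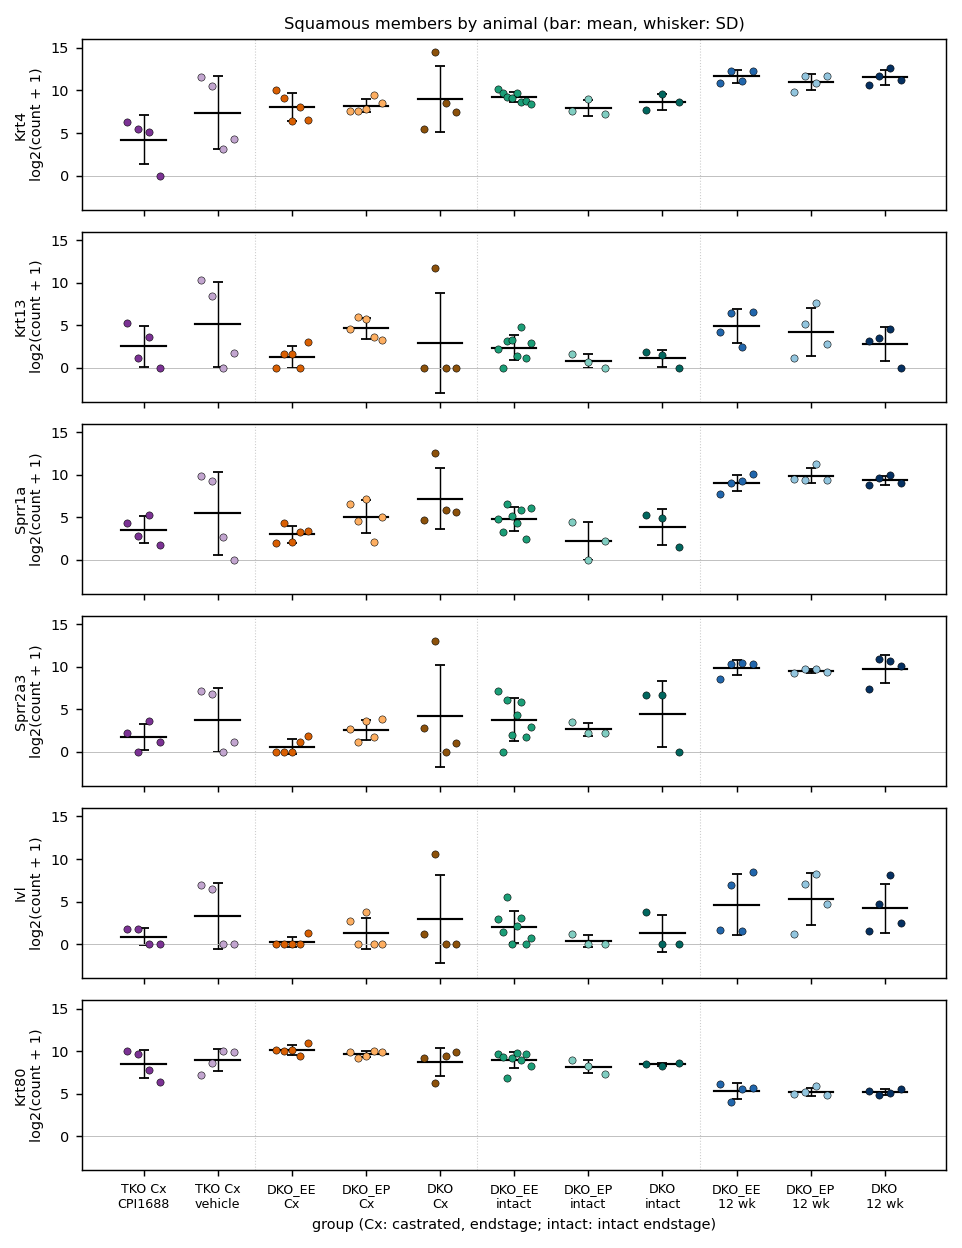
The plot gives log2(normalized count + 1) of Krt4, Krt13, Sprr1a, Sprr2a3, Ivl and Krt80 by animal (points) in the 11 groups, with bars for means and whiskers for SD. Sprr1a and Sprr2a3 are above 7 in all 12-week mice and lower in most endstage mice, Ivl is spread within the 12-week groups, and Krt80 is higher at endstage. The castrated DKO animal with 14.47 for Krt4 and 11.74 for Krt13 is the highest of its group in every panel except that of Krt80, where it is lowest with 6.26.

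Most of the remaining squamous members were either well measured and not called, or close to 0. Krt4 had 7.69, 9.56 and 8.60 in intact DKO tumours, against 10.60, 11.65, 12.67 and 11.20 at 12 weeks, without overlap, and its log2 fold change of -2.91 (SE 1.48, adjusted p = 0.121) missed the threshold. That SE rests on the spread within all 11 groups of the fit, and Krt4 ran from 5.45 to 14.47 within castrated DKO. The plakophilin of stratified epithelia, Pkp1, had 9.32, 9.80 and 9.16, against 7.71, 9.01, 8.56 and 7.44, at 1.25 (SE 0.81, adjusted p = 0.231), and Ppl had 8.94, 9.10 and 8.72, against 9.56, 9.43, 10.03 and 8.99, at -0.58 (SE 0.43, adjusted p = 0.309). The groups overlapped for Ppl and not for Pkp1, and neither gene was called. Krt16, a keratin of activated epidermis, was lower in DKO_EE at -2.65 (SE 0.92, adjusted p = 0.0157), and Krt76, a palate keratin, was lower in DKO_EP, where it was at 0 in every intact tumour and at 0, 1.04, 2.06 and 1.02 at 12 weeks, under the floor of 3 reads, a call lost in 11 alternatives with adjusted p up to 0.182. Krt1 had 0.92 to 2.22 in intact DKO tumours, against 0 to 3.49 at 12 weeks, and Dsc1, the desmocollin of upper epidermis, had 0 to 1.88, against 0 to 3.06. Sprr2d, Sprr2e, Sprr2f, Sprr2g and Sprr2h, and the desmogleins Dsg1a and Dsg1b, were called in no comparison, and their highest value in intact DKO tumours was 3.55, for Sprr2d. The castrated DKO animal 2 had 11.09 for Sprr2f and 7.83 for Sprr2d.

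Of the 5 other members, Krt75, a keratin of the hair follicle, was the one called in progression. It had 0 at the lowest, 0 at the median and 1.29 at the highest in intact DKO_EE tumours, against 3.06, 2.88, 2.46 and 1.82 at 12 weeks, at -2.28 (SE 0.51, adjusted p = 0.000335) in DKO_EE. In DKO_EP it was at 0 in all 3 intact tumours, against 2.28, 2.65, 3.98 and 1.61 at 12 weeks, with a mean under the floor of 3 reads. Krt222, a keratin-like protein, had 0.92 to 3.02 in intact DKO tumours, against 0 to 3.49 at 12 weeks. The hair keratins Krt81 and Krt83 had at most 1.48 and 1.91 in intact DKO tumours, and Dsg4, the hair desmoglein, was at 0 in them.

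Cornification and barrier genes listed outside the rule, 22 of them in the table, gave 4 lower and 2 higher in DKO, 5 and 2 in DKO_EE, and 7 and 2 in DKO_EP, with medians of -0.58, -1.29 and -1.26. Cers3, a ceramide synthase of the skin barrier, was -4.99 (SE 1.17, adjusted p = 0.000864) in DKO, and Elovl4, which elongates very long fatty acids, was 3.54 (SE 0.90, adjusted p = 0.00202). Of 22 epithelial differentiation factors, 9 were lower and 2 higher in DKO, 8 and 3 in DKO_EE, and 9 and 2 in DKO_EP. Klf5, a factor of proliferating epithelium, was -3.60 (SE 0.59, adjusted p = 1.17e-05) in DKO, and Sox2 and Jag2 were higher in every genotype, Jag2 by 1.76 (SE 0.45, adjusted p = 0.00197) in DKO. The wound keratin Krt6a had 6.04, 5.40 and 0 in intact DKO tumours, against 8.07, 8.06, 6.65 and 6.39 at 12 weeks. It was called lower in DKO_EP (-6.71, SE 1.77, adjusted p = 0.00232), with -3.48 (SE 1.77, adjusted p = 0.122) in DKO and -3.16 (SE 1.42, adjusted p = 0.0606) in DKO_EE, and 51.3% of its 31-base words occur in other genes, mostly Krt6b. Krt6b itself had 3.02, 2.70 and 0 in intact DKO tumours, against 3.91, 3.97, 3.07 and 3.66 at 12 weeks.

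Called members of 1 keratin cluster went both ways. The 13 members on chromosome 15 lie within 684.6 kb (101347444 to 102032027, GRCm38), 12 of them type II keratins and 1 the type I keratin Krt18. Read along the chromosome in DKO, Krt80 was 3.24 and Krt7 2.50, both called higher, and Krt5 was -5.47. Krt79 (101929332 to 101940324) was 2.54 and Krt78, the next member (101946001 to 101954287), was -5.85, both called, though the call of Krt79 was lost in 6 alternatives. Krt8 and Krt18 at the end of the cluster were 0.45 and -0.29, neither called. The 10 keratins on chromosome 11 span 1028.3 kb, and there the calls in DKO were lower for Krt15, Krt19 and Krt17 and higher for Krt10. The 10 members on chromosome 3, all of the epidermal differentiation complex, span 541.4 kb, and 3 of them (Sprr2a3, Sprr1a and Lce6a) were called lower in DKO.

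The next question was whether the Ezh2 genotypes differ from DKO at a given stage. At 12 weeks none of the 51 members was called by limma in DKO_EE or DKO_EP (0% of 16626 genes in each), with 2 and 1 members at an unadjusted p under 0.05 and none by limma-voom. Krt5 had 9.82, 10.76, 8.40 and 10.20 in DKO_EE and 7.96, 10.23, 11.15 and 9.37 in DKO_EP, against 9.68, 10.15, 10.25 and 7.21 in DKO, all overlapping.

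At intact endstage, 3 plaque and plakin genes were higher in DKO_EE than in DKO and none was lower. These were 3 of 48 members tested, 6.25%, against 1.66% of all genes, with 1.12% of all genes called higher, and 3 members at 0 in all animals of this fit were not tested. Envoplakin (Evpl) and periplakin (Ppl), plakins that link keratin filaments to the desmosome and the envelope, and Pkp4 were the 3. Evpl was 7.80 at the lowest, 8.46 at the median and 9.09 at the highest in the 8 DKO_EE tumours, against 7.66, 7.46 and 6.99 in DKO, and Ppl was 9.48 at the lowest, 10.08 at the median and 10.35 at the highest, against 8.94, 9.10 and 8.72. Pkp4 was 11.21 at the lowest, 11.33 at the median and 11.70 at the highest in DKO_EE, against 10.37, 10.72 and 10.71 in DKO. The groups did not overlap for any of the 3. The log2 fold changes were 1.14 (SE 0.24, adjusted p = 0.0291) for Evpl, 1.06 (SE 0.21, adjusted p = 0.0242) for Ppl and 0.80 (SE 0.14, adjusted p = 0.0131) for Pkp4. With age as a covariate, or with all 11 groups in one fit, the count was 0. The call was lost in 7 alternatives for Evpl, 5 for Ppl and 3 for Pkp4, with adjusted p up to 0.242, 0.17 and 0.0874. Without intact DKO animal 1 the count was 0, and without animal 2 or 3 it was 1 (Pkp4). In DKO_EP none of 48 members was called (0% of all genes), with 1 at an unadjusted p under 0.05, and Evpl had 8.40, 8.04 and 7.92, against 7.66, 7.46 and 6.99 in DKO. Krt5, Krt14, Krt15 and Trp63 were called in neither genotype, and the DKO_EE log2 fold changes were -0.40 (SE 1.73, adjusted p = 0.931) for Krt5 and 0.69 (SE 0.83, adjusted p = 0.725) for Trp63.

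At castrated endstage no member was called in DKO_EE (0 of 50, against 7.72% of all genes) or in DKO_EP (0 of 50, against 0.0302%), with 9 and 2 members at an unadjusted p under 0.05 and 0 by limma-voom. The members' median was -0.87 in DKO_EE and -0.64 in DKO_EP, against -0.0035 and 0 over all genes, and -0.52 and -0.24 with members at 0 in a whole group set to their bound. Both medians changed sign without castrated DKO animal 2, when they were 0.20 in DKO_EE and 0.25 in DKO_EP, and 2 members were called in DKO_EE and 1 in DKO_EP. The DKO_EE count was also 1 without castrated DKO animal 3 or 4 or DKO_EE animal 2, and 2 without DKO_EE animal 4. The members called without DKO animal 2 were Evpl at 0.50 (SE 0.14, adjusted p = 0.0484) and Pkp3 at -0.48 (SE 0.14, adjusted p = 0.0468) in DKO_EE, and Krt13, the mucosal type I keratin, in DKO_EP (adjusted p = 0.0429), where the remaining DKO animals were at 0. Krt13 had 0, 1.59, 1.63, 0 and 2.995 in castrated DKO_EE, 4.53, 5.99, 5.70, 3.64 and 3.26 in castrated DKO_EP and 0, 11.74, 0 and 0 in castrated DKO. All 5 DKO_EP tumours thus had Krt13 signal, and 3 of 4 DKO tumours had none. Krt18 had 10.67, 12.10, 11.21, 10.77 and 11.57 in DKO_EE, against 11.70, 11.99, 13.18 and 12.04 in DKO, a log2 fold change of -0.96 (SE 0.32, adjusted p = 0.0831), and Sprr1a had 2.01, 4.32, 2.05, 3.24 and 3.43 in DKO_EE, against 4.71, 12.53, 5.90 and 5.57 in DKO, at -4.17 (SE 1.41, adjusted p = 0.0886). For Sprr1a the groups did not overlap, and the test was missed with castrated DKO animal 2 and without it, when the value was -2.39 (SE 0.93, adjusted p = 0.134).

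That DKO animal was high in a set of members that were low or absent in its group. Krt5 had 3.62, 14.23, 0 and 1.08 over the 4 castrated DKO animals, Trp63 had 5.07, 11.31, 0 and 2.11 and Krt15 had 1.17, 14.88, 0 and 0. Animal 2 was the highest for all of them. Among squamous members, Krt4 had 5.45, 14.47, 8.52 and 7.50, Sprr2a3 had 2.86, 13.09, 0 and 1.08 and Ivl had 1.17, 10.62, 0 and 0, while Lor had 2.25, 0, 2.41 and 3.59 with animal 2 at 0. Per kilobase of exon, animal 2 had a normalized count of 17017 for Krt15, 10614 for Krt4, 8754 for Krt5 and 8568 for Krt19, all above its 4090 for Krt8. Its Chga, a granule protein of neuroendocrine cells, was 3.59, with 10.14, 10.51 and 10.48 in animals 1, 3 and 4. Its urothelial Upk1b was 10.92, with 1.81, 2.41 and 4.04 in the others. The 7 neuroendocrine markers summed to 8.15 in animal 2, against 7.05 to 9.90 in DKO at 12 weeks. Over the 4 castrated DKO animals, the proliferation markers summed to 11.78 to 14.61, against 11.325 to 12.43 in DKO at 12 weeks. The prostate luminal markers summed to 9.74 to 12.83, against 13.03 to 13.59. The seminal vesicle markers summed to 0 to 10.13, against 6.99 to 13.62. The part of these cell types in the values of animal 2 was not tested, and its age of 99 weeks cannot be told apart from them.

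Castration was the third question, with castrated set against intact endstage tumours of the same genotype. In DKO, 1 of 51 members was called, against 13.9% of all genes: Evpl was higher, with 8.25, 10.79, 8.39 and 8.36 in castrated DKO tumours, against 7.66, 7.46 and 6.99 in intact ones, a log2 fold change of 1.58 (SE 0.53, adjusted p = 0.0403). Without castrated DKO animal 2 the value was 0.96 (SE 0.50, adjusted p = 0.249) and no member was called, as also without any 1 of the 3 intact DKO animals. Leaving the libraries with over 10% Lars2 out of the fit over all 11 groups also gave no call, though no DKO library was among them. Without castrated DKO animal 1, 3 or 4 the count was 2. The median of the members was 0.59 (0.50 with members at 0 set to their bound), against -0.02 over all genes, and -0.29 without castrated DKO animal 2. In DKO_EE, 1 of 51 was called, against 16.5% of all genes: Krt83, a hair keratin at low level, was lower, with 0, 1.0001, 0, 0 and 0 in castrated tumours, against 0.48 at the lowest, 2.41 at the median and 5.23 at the highest in intact ones, a log2 fold change of -2.48 (SE 0.53, adjusted p = 0.000433). The groups overlapped, 37.4% of its 31-base words occur in other genes, and without castrated DKO_EE animal 2 the count was 2. In DKO_EP none was called by limma or limma-voom, against 9.87% of all genes, with 2 at an unadjusted p under 0.05. Krt80 had 9.92, 9.18, 9.48, 9.97 and 9.87 in castrated DKO_EP tumours, against 8.91, 8.30 and 7.36 in intact ones, with no overlap and a log2 fold change of 1.49 (SE 0.69, adjusted p = 0.207). The difference in the effect of castration between DKO_EE and DKO was called for none of 51 members (0.0119% of all genes), and that between DKO_EP and DKO for none (0.0238%), with 5 and 0 members at an unadjusted p under 0.05. For Evpl, the effect of castration was 0.33 (SE 0.40, adjusted p = 0.686) in DKO_EE, and the test of its difference from DKO gave -1.25 (SE 0.67, adjusted p = 0.542). Krt8, Krt18, Trp63 and Krt5 were called in none of the 3 genotypes.

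In castrated TKO mice the question was what the Ezh2 inhibitor CPI1688 changes. No member was called (0 of 51, 0% of 16512 genes), with 3 at an unadjusted p under 0.05 and 0 by limma-voom, and the median of the members was -0.85 (-0.78 with members at 0 set to their bound), against 0.02 over all genes, and -0.53 without vehicle animal 1. The vehicle group was split. Krt5 had 5.31, 3.25, 4.45 and 6.01 with CPI1688, against 11.87, 9.48, 0 and 4.33 with vehicle, and Krt14 had 4.86, 2.55, 3.51 and 5.89, against 11.20, 8.31, 0 and 3.56. Trp63 had 3.01, 2.22, 4.53 and 5.48 with CPI1688, against 8.76, 7.39, 0 and 2.20 with vehicle. Vehicle animals 1 and 2 lay above all 4 treated animals for these 3 genes, and animals 3 and 4 lay at or below the middle of them. The squamous members showed the same 2 animals, with Krt13 at 5.22, 1.15, 3.67 and 0 with CPI1688, against 10.27, 8.39, 0 and 1.76, Ivl at 1.74, 1.78, 0 and 0, against 6.95, 6.45, 0 and 0, and Sprr1a at 4.30, 2.83, 5.32 and 1.80, against 9.82, 9.26, 2.74 and 0. Chga was 11.89, 11.44, 10.67 and 9.15 with CPI1688, against 6.06, 10.01, 12.22 and 11.17 with vehicle, so vehicle animal 1, the highest for Krt5, was the lowest for Chga. The log2 fold change of Krt5 was -1.67 (SE 2.34, adjusted p = 1) and became 0.15 (SE 1.99, adjusted p = 0.992) without vehicle animal 1. For Trp63 it was -0.78 (SE 1.92, adjusted p = 1) and became 0.61 (SE 1.71, adjusted p = 0.955).

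Luminal keratins in treated TKO mice turned on animal 4, which had 9.58 for Krt8, 8.97 for Krt7 and 0 for Krt4. Krt8 had 12.52, 12.18, 11.90 and 9.58 with CPI1688, against 11.48, 12.04, 12.48 and 12.34 with vehicle, a log2 fold change of -0.54 (SE 0.61, adjusted p = 1), and without animal 4 it was 0.11 (SE 0.29, adjusted p = 1). The 7 fibroblast markers summed to 14.64 to 17.93 in the CPI1688 group, with animal 4 the highest, against 13.52 to 18.39 with vehicle, with animal 1 the highest. Their part in the keratin values was not tested. Krt20 had 8.72, 9.13, 8.68 and 5.44 with CPI1688, against 7.07, 6.26, 7.22 and 2.81 with vehicle, and was 2.15 (SE 1.16, adjusted p = 1). Vehicle-treated TKO tumours were set against castrated DKO tumours too, and none of 51 members was called (0.566% of all genes), with 5 at an unadjusted p under 0.05 and 0 by limma-voom. Krt18 had 10.99, 11.47, 11.55 and 10.74 in TKO, against 11.70, 11.99, 13.18 and 12.04 in DKO, without overlap, at -1.04 (SE 0.31, adjusted p = 0.136). Ages also differ between these groups, 15 to 19 weeks in TKO against 39 to 99 weeks in DKO, so age and genotype cannot be told apart.

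Pieces of the same tumour-bearing prostate differed for some members. Of the 6 intact animals with 2 sequenced pieces, DKO_EE animal 5 had a Krt5 value of 8.08 in the piece marked AP and 0 in the one marked DP, and DKO_EE animal 6 had 8.18 in AP and 1.56 in DP. DKO_EE animals 7 and 8 had Krt5 at 0 in both pieces. DKO_EP animal 1 had 2.88 in AP and 0 in the piece marked LP-DP, and DKO_EP animal 2 had 0 in AP and 4.33 in DP. For Krt8, the AP and DP pieces of DKO_EE animal 5 had 13.54 and 13.57, and the AP and DP-LP pieces of DKO_EE animal 8 had 12.80 and 13.74. Over the 16 members with a mean above 6, the median absolute difference between pieces was 0.17 to 0.79, and the largest was 4.87, for Krt4 in DKO_EP animal 1. The endstage values of an animal with 2 pieces are means of their log2 values.

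Several members share sequence with close relatives, and the authors' counting could divide their reads. The share of 31-base words also found in other genes was 60% for Dsg1b, 51.9% for Krt16, 44.6% for Krt81, 41.4% for Dsg1a, 32.3% for Krt8 and 28.2% for Krt14. It was 12.8% for Krt5, 11.4% for Krt18, 3.74% for Krt15 and 0 for Krt20, Krt23 and Evpl. The levels of the first 6 are uncertain for this reason, and by how much was not measured.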

How the data were processed

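RNA from 54 libraries of 48 mice was analysed from 1 deposited table of 16772 genes. Its values are log2 of the normalized count plus 1, as deposited by the authors. The submitters' processing notes name STAR, RSEM, FastQC, DESeq2 and limma, with the builds GRCm38 and mm10. Versions, roles and the filter on genes are not given in the sources used here. Of 56 columns, 2 matched no sample label and were not used. Removing the logarithm and the 1 left whole multiples of 1 step per library for 100% of values (within 0.05 of a whole number), and those reads gave the depths and the limma-voom alternative. A value of 0 was set against a floor of 3 reads per library, which covers counting error only.

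The 2 pieces of 6 animals were averaged on the log2 scale, so that the animal is the replicate. limma 3.58.1 (R 4.3.3) with a mean-variance trend was fitted to all genes with any spread, with Benjamini-Hochberg adjustment over them and 0.05 as the threshold. Genotypes were compared in 1 fit per stage, the TKO groups in their own fit, and the remaining comparisons in 1 fit over all 11 groups. The fit was tested on simulated data. Gene positions come from GENCODE M21 and promoters from RefSeq (GRCm38.p6). Values by animal are given for called members, for those with a large spread between groups and for a set of marker keratins. The members, their classes and every list were chosen with earlier results of these data known. Alternatives changed the groups in the fit, the offset (16), the normalization, the lowest 25% of genes, age, the pieces, single animals, and libraries with over 10% Lars2 or 1% Ttn.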

Additional observations from a re-analysis of the deposited data

Results flagged for a closer look

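In groups of 4 to 10 animals, 15 of 207 sets of values (23 genes over 9 groups) had 1 animal set apart by more than Dixon's 95% critical value, where chance gives about 1 in 20. Castrated DKO animal 2 was the animal apart in 6 of them: Krt15 at 14.88 (others 0 to 1.17), Ivl at 10.62 (others 0 to 1.17), Sprr1a at 12.53 (others 4.71 to 5.90), Krt13 at 11.74 (others at 0), Evpl at 10.79 (others 8.25 to 8.39) and Ppl at 11.44 (others 9.35 to 9.59). This animal was also the oldest, at 99 weeks.

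Among 12-week mice, DKO animal 4 had Krt15 at 7.44 (others 11.46 to 11.92) and Krt18 at 12.36 (others 12.01 to 12.04). DKO_EP animal 3 had Sprr1a at 11.27 (others 9.40 to 9.49) and Dsp at 13.63 (others 12.45 to 12.63), and DKO_EP animal 2 had Krt19 at 13.37 (others 13.74 to 13.78). DKO_EE animal 1 had Sprr2a3 at 8.62 (others 10.30 to 10.46), and DKO_EE animal 4 had Krt10 at 4.40 (others 3.52 to 3.67). In the castrated groups, the CPI1688-treated TKO animal 4 had Krt20 at 5.44 (others 8.68 to 9.13), and DKO_EE animal 5 had Ivl at 1.26 (others at 0). That Ivl value lies under the floor of 3 reads. Where all others are at 0, any value above 0 is set apart by this rule.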

How the results depend on the processing

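Of 810 values of the 62 called member results under the alternatives, 712 kept their direction and stayed past the threshold, 98 kept their direction and missed it, and 0 reversed. The number of members called moved by over 1.5 times in these cases. For DKO_EE against DKO at intact endstage (3), it was 0 with age as a covariate and 0 with all 11 groups in one fit. For DKO_EE against DKO at castrated endstage (0), it was 3 with all 11 groups in one fit. For intact endstage against 12 weeks, it was 25 in DKO (16) with only the groups compared and 12 in DKO_EP (20) without the lowest 25% of genes. For castrated against intact endstage, DKO (1) gave 2 by limma-voom, 0 with only the groups compared and 0 without the libraries over 10% Lars2, DKO_EE (1) gave 0 without the lowest 25% of genes, and DKO_EP (0) gave 4 with only the groups compared. Without the lowest 25% of genes, called members in that part, such as Krt83, were no longer tested. The 41 called results still tested there all stayed past the threshold. The causes of the other changes were not tested.

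Leaving out 1 animal at a time gave 0 to 1 members for DKO_EE against DKO at intact endstage, 0 to 2 at castrated endstage, and 0 to 1 for DKO_EP at castrated endstage. The progression counts ranged over 8 to 16 in DKO, 18 to 21 in DKO_EE and 18 to 23 in DKO_EP. Castrated against intact counts ranged over 0 to 2 in DKO and 1 to 2 in DKO_EE, and every remaining comparison gave 0 to 0. The 8 intact DKO_EE animals were not left out in turn. No paired analysis was possible because the labels give no replicate numbers shared between groups. Low members are limited by depth: 24 of the 51 lie in the lowest 25% of genes by mean level.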

Other observations

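Intermediate filaments other than keratins were called in both directions at intact endstage against 12 weeks. Of 10 such genes, 3 were higher and 2 lower in DKO, 4 and 3 in DKO_EE, and 2 and 2 in DKO_EP. Ina, alpha-internexin of neurons, was higher in each genotype, with 7.50, 8.14 and 8.09 in intact DKO tumours, against 3.71, 3.06, 3.53 and 1.11 at 12 weeks, a log2 fold change of 5.05 (SE 0.98, adjusted p = 0.000112). Nefl, the light neurofilament chain, was 5.74 (SE 2.15, adjusted p = 0.0335) in DKO. Des, the filament of muscle, was lower in each genotype, with 6.34, 9.23 and 5.37 in intact DKO tumours, against 11.49, 10.85, 10.40 and 10.41 at 12 weeks, at -3.81 (SE 0.93, adjusted p = 0.00135). Vim, the filament of mesenchymal cells, was lower in DKO_EE at -1.39 (SE 0.55, adjusted p = 0.033). Of 3 hair follicle and skin markers, Tchh was lower in each genotype.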
